A study of Mus musculus with 3 samples.

Results

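The 36 genes described here are 17 immediate-early genes, 6 of them AP-1 subunits, and 19 heat shock genes. They were taken by name from 33696 genes counted in single-cell RNA sequencing of immune cells from mouse small cell lung tumors, and all 36 were in the gene table. The AP-1 subunits were Fos, Fosb, Jun, Junb, Jund and Atf3. The other immediate-early genes were Ier2, Ier3, Ier5, Dusp1, Btg2, Klf4, Klf6, Zfp36, Rhob, Gadd45b and Ppp1r15a. The heat shock genes were Hspa1a, Hspa1b, Hspa8, Hspa5, Hspa4, Hsph1, Hsp90aa1, Hsp90ab1, Hspb1, Hspd1, Hspe1, Dnaja1, Dnajb1, Dnajb4, Bag3, Cacybp, Chordc1, Stip1 and Ahsa1.

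Tumors were grown under the skin of wild-type female B6129SF1/J mice from 500000 cells of KP1, a mouse small cell lung cancer line, and CD45+ cells were sorted from tumors collected on day 19. The mono-IL-10 group received an engineered monomeric IL-10, which signals through the IL-10 receptor. The IL-10/2-Trikine group received the same cytokine joined to an IL-2 part that recruits the IL-2 receptor beta chain, and the combination group received the IL-10/2-Trikine with an antibody against PD-1. By the labels, cytokine doses of 3 µg were repeated every other day and began on day 7, and 200 µg of antibody was injected on day 7, day 11, day 15 and day 19. The antibody was given in the combination group, as its title, its treatment and the methods have it. By the methods, mice of this strain were bought when 5 to 6 weeks old. Each group was 1 library, the number of mice behind it is not given in the sources used here, and no test between groups was possible. Intervals of levels, ratios and shares therefore cover counting error at 95% and not the spread between mice, and the interval of a list's median covers the spread among its genes.

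Immediate-early genes are switched on within minutes of a signal, without new protein synthesis, by growth factors, antigen and cytokine receptors and also by mechanical or enzymatic handling of tissue. Fos and Jun proteins pair to form the AP-1 transcription factor, and several of the other genes shut the signal down again: Dusp1 encodes a phosphatase that inactivates MAP kinases and Zfp36 encodes tristetraprolin, which destabilizes cytokine mRNAs. Heat shock genes encode chaperones. Hspa1a and Hspa1b, the inducible HSP70 genes, are low in unstressed cells and are driven by heat shock factor 1, while Hspa8, Hsp90ab1, Hspd1 and Hspe1 are made constantly and more of them is made in growing cells. Tumor dissociation and sorting can induce both families, so measures of cell handling are given beside the results below.

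After filtering, the libraries held 22235 cells for mono-IL-10, 22707 for IL-10/2-Trikine and 26967 for the combination, with median depths of 4774, 5562 and 4273 UMIs (unique molecules counted) per cell, of 158570946, 197176873 and 175794959 UMIs over all droplets. Between 137 and 180 cell barcodes were shared by each pair of libraries, under 0.8% of either. Cells were clustered without the 36 genes and the related lists, and clusters were named from marker genes, so that T cells, NK cells and so on stand for clusters like those cells. T cells numbered 8268, 9803 and 12187 in the order mono-IL-10, IL-10/2-Trikine and combination, which holds for every set of 3 values below. NK cells numbered 1370, 5050 and 4250, macrophages 1869, 1013 and 2245, monocytes 2099, 2372 and 2019, neutrophils 326, 642 and 113, and B cells 1567, 172 and 245. The label calls the cells T cells, and these 6 classes and KP1 tumor cells (799, 1006 and 964) show that the sorted fraction held more than T cells. The NK class joined a cluster in which 67.4% of cells had a Cd3e UMI, with Ly49 receptor genes such as Klra6 and the gamma-delta receptor genes Trdc and Trgc4 among its leading genes (628, 3960 and 2560 cells), and a cluster with 9.45% (742, 1090 and 1690 cells). A cluster in which most barcodes carried both T cell and macrophage transcripts was set apart. Another cluster had a C1qa UMI in 99.3% of cells (2338, 817 and 2089 cells). It matched macrophages best, but leading genes of another class left it unnamed. It is in none of the 6 classes, and neither are unnamed clusters of 2767 and 1581 cells.

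Promoter sequences of the members on which the results turn are shown first. They let exact or near matches to the letters that a heat shock factor, CREB or serum response factor binds be seen in each family. A match is a description of the letters and not a measured binding site. RefSeq promoters of assembly GRCm38.p6 were matched for 32 of the 36 members, and the 250 bases before each start site were searched on both strands. Capitals mark a cAMP response element (TGACGTCA) with at most 1 mismatch in Fos and Jun, the serum response element core known as the CArG box in Zfp36, and heat shock elements (GAANNTTCNNGAA or TTCNNGAANNTTC, overlapping matches joined) in Hspe1 and, with 1 mismatch, in Hspa1a. The sequences run 5′ to 3′ along each gene's own strand.
Fos, chr12:85473640-85473889, plus strand: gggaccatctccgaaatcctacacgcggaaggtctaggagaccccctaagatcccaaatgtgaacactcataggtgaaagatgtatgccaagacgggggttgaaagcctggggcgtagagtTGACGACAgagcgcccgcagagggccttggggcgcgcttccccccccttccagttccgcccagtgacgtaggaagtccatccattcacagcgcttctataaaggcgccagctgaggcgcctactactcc
Jun, chr4:95052223-95052472, minus strand: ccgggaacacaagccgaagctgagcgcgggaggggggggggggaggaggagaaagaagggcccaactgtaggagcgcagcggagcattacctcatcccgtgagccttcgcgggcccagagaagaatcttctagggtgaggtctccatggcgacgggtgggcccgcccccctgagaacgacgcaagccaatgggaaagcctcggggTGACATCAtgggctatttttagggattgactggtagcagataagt
Zfp36, chr7:28379229-28379478, minus strand: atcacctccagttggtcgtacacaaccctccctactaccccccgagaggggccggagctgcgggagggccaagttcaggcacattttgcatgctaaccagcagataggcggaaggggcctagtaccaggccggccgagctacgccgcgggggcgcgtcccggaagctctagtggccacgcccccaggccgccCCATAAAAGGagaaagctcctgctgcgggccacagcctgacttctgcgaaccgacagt
Hspa1a, chr17:34972157-34972406, minus strand: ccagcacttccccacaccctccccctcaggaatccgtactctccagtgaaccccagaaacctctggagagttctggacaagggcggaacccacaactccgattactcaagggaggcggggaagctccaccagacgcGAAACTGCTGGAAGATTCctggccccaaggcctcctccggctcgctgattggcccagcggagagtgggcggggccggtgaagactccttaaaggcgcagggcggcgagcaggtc
Hspe1, chr1:55087898-55088147, plus strand: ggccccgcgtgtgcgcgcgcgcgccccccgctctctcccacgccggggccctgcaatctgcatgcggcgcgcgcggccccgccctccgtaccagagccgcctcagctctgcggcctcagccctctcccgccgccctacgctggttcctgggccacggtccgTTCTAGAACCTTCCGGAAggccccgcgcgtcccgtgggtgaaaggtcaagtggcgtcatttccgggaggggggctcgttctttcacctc

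The exact heat shock element was found in the promoters of 139 of 27025 genes (0.514%), and among members in Hspe1 and Hspd1, which are transcribed away from each other and share it. With 1 mismatch allowed, 8 of 16 heat shock members held it (Dnaja1, Dnajb4, Hspa1a, Hspa1b, Hspb1, Hspd1, Hspe1 and Hsph1) and 0 of 16 immediate-early members, against 6.86% of all genes. A cAMP response element with at most 1 mismatch was found in 8 of 16 immediate-early members (Atf3, Btg2, Dusp1, Fos, Jun, Klf4, Klf6 and Ppp1r15a), in 6 of 16 heat shock members and in 12.1% of all genes. The exact form was in Btg2, Dusp1 and Ppp1r15a and in 1.77% of all genes. The CArG box was found in Zfp36 alone among members and in 1.62% of all genes, and the AP-1 site itself (TGANTCA) in Bag3 and Hspa5 and in 7.82% of all genes. Sites outside the 250 bases were not searched, so a member without a match here may hold one further upstream. The promoter windows of Hspa1a and Hspa1b were identical at 247 of 250 positions. Their transcripts were not compared here. Reads from stretches that the genes share may not tell them apart, and the sum of both is used for the main statements.

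In T cells, Fos and Jun were the AP-1 subunits that differed most between the cytokines. Fos stood at 145, 56.8 and 54.3 CPM (UMIs of the gene per 1000000 UMIs of all genes in that class and library). Jun stood at 157, 33.2 and 36.3 CPM. Both were high in the mono-IL-10 library and low in both IL-10/2-Trikine libraries, with no overlap of the counting intervals between mono-IL-10 and the others. The log2 ratio of IL-10/2-Trikine over mono-IL-10 was -1.35 (95% interval -1.41 to -1.30) for Fos and -2.24 (-2.30 to -2.18) for Jun, that is 2.56-fold and 4.72-fold lower. Their partners behaved differently. Junb, which often opposes Jun at the same sites, stood at 1199, 1067 and 1410 CPM, and Jund, the constantly made Jun protein, at 971, 858 and 1023 CPM. The log2 ratios were -0.17 for Junb and -0.18 for Jund, level with the median of all genes in T cells of -0.18.

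Of the feedback genes in T cells, Zfp36 stood at 142, 48.1 and 50.3 CPM, a log2 ratio of -1.56 (-1.62 to -1.50). Dusp1 stood at 158, 124 and 183 CPM, a log2 ratio of -0.35 (-0.39 to -0.30). The stress phosphatase subunit Ppp1r15a, also called GADD34, stood at 162, 87.7 and 107 CPM, a log2 ratio of -0.88. Rhob, a small GTPase gene, was the remaining member at least 2-fold lower, from a low level of 19.8 CPM to 9.57 CPM. Ier2, an immediate-early gene as well, was nearly level at 333, 347 and 325 CPM, and Gadd45b stood at 192, 201 and 284 CPM, highest in the combination. In all, 4 of the 17 AP-1 and immediate-early members were at least 2-fold lower in T cells (Fos, Jun, Zfp36 and Rhob) and 0 at least 2-fold higher, where 9.46% of the 15470 genes measured were lower and 3.59% higher by that much. The median of the 17 log2 ratios was -0.35 (-0.88 to -0.14). In T cells with no UMI of the proliferation marker Mki67 that median was -0.06, while Fos gave -1.51 and Jun -2.22.

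In NK cells Jun stood at 312, 36.6 and 55.6 CPM and Fos at 300.5, 62.8 and 64.3 CPM. The log2 ratio of IL-10/2-Trikine over mono-IL-10 was -3.09 (-3.19 to -2.99) for Jun, 8.51-fold lower, and -2.26 (-2.34 to -2.17) for Fos. Zfp36 stood at 344, 52.2 and 61.8 CPM, a log2 ratio of -2.72. Mono-IL-10 was far above both other libraries for all 3 genes. Junb was lower by more than in T cells, at 1984, 829 and 1109 CPM (log2 ratio -1.26), as was Jund, at 1525, 996 and 1473 CPM (-0.61). Dusp1 stood at 432, 132 and 222 CPM, Ier5, a regulator of heat shock factor 1, at 384, 153 and 262 CPM, and Fosb at 95.3, 33.1 and 57.0 CPM. Their log2 ratios were -1.71, -1.32 and -1.53. Ppp1r15a at 226, 69.9 and 110.3 CPM, Rhob at 75.7, 26.9 and 29.3 CPM and Gadd45b, a stress-kinase activator, at 264, 123 and 252 CPM gave log2 ratios of -1.69, -1.49 and -1.10.

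All 17 AP-1 and immediate-early members were below 0 in NK cells on the log2 scale, 11 of them at least 2-fold lower and 0 at least 2-fold higher, beside 8.0% lower and 6.36% higher among all 13129 genes measured. Their median log2 ratio was -1.30 (-1.69 to -0.88) against -0.13 for all genes. The cluster with few Cd3e UMIs, which holds the cells nearest to NK cells proper, gave the same direction for all 17 members with a median of -0.85, but 4 in place of 11 were at least 2-fold lower there (Fos, Jun, Zfp36 and Ppp1r15a) and 0 higher, beside 2.62% and 2.51% of 10068 genes. Fos and Jun summed stood at 743, 185 and 168 CPM in that cluster, and at 504, 89.1 and 101 CPM in the cluster rich in Cd3e.

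**Figure D1:**
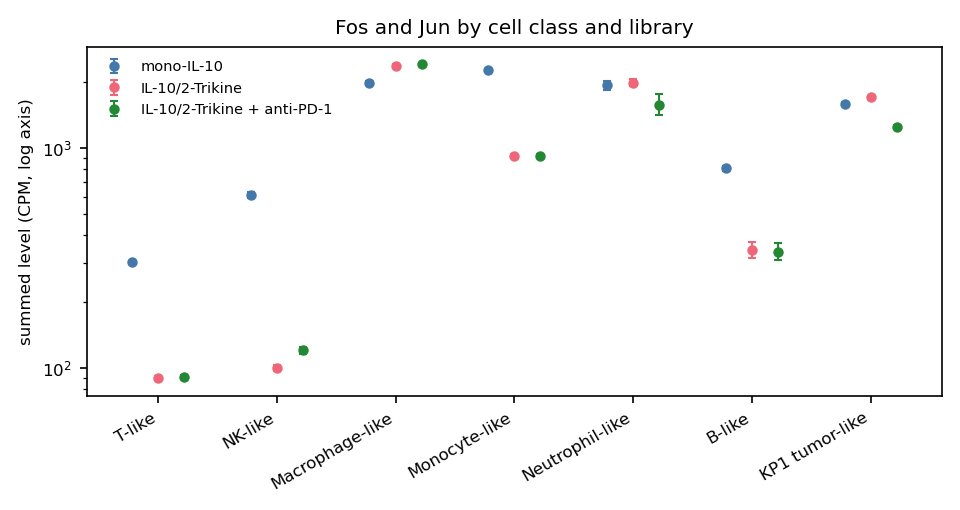
Summed level of Fos and Jun (y axis, CPM, log scale) by cell class (x axis) in the 3 libraries (colors), with 95% counting intervals as bars. T, NK, monocyte and B cells are highest in the mono-IL-10 library, for example 612 CPM against 99.5 CPM in NK cells, while macrophages, neutrophils and KP1 tumor cells differ by less than 1.5-fold.

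In monocytes Fos, Jun and Atf3 were lower with the IL-10/2-Trikine. Fos stood at 1804, 691 and 639 CPM, Jun at 475, 232 and 281 CPM, and Atf3, a stress-induced AP-1 partner, at 695, 347 and 350.4 CPM. Their log2 ratios were -1.38 (-1.41 to -1.35), -1.03 (-1.09 to -0.98) and -1.001 (-1.04 to -0.96), and the mono-IL-10 library was the high one for each. Atf3 in T cells gave 0.30 (0.08 to 0.52). Junb was at 1919, 1462 and 1430.2 CPM and Jund at 1161, 1052 and 1148 CPM. Dusp1, at 1011, 549 and 515 CPM, was lower by a log2 ratio of -0.88. Of the 17 members, 3 were at least 2-fold lower and 0 at least 2-fold higher in monocytes, beside 2.48% lower and 8.85% higher among all 13156 genes, and the median was -0.55 (-0.88 to -0.26) against 0.08 for all genes.

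B cells were also highest in mono-IL-10, with Fos at 496, 217 and 180.3 CPM, Jun at 313, 126 and 158 CPM and Zfp36 at 469, 208 and 219 CPM. The log2 ratios were -1.20, -1.31 and -1.17. Ppp1r15a stood at 209, 97.6 and 97.5 CPM, a log2 ratio of -1.10 (-1.34 to -0.87). Junb stood at 922, 835 and 919.5 CPM, Jund at 999.8, 1379 and 1452 CPM and Dusp1 at 259, 138 and 146 CPM. Here 5 of the 17 members were at least 2-fold lower (these 4 genes and Ier3, an apoptosis regulator) and 0 at least 2-fold higher, beside 17.3% lower and 2.78% higher among 11638 genes. The B class held a deeper cluster (959, 172 and 187 cells) and a shallow one (608, 0 and 58 cells). In the deeper cluster alone, Fos and Jun summed stood at 834, 343 and 339.7 CPM.

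Macrophages did not share the difference. Fos stood at 1496, 1832 and 1768 CPM and Jun at 491, 538 and 646 CPM, so that the IL-10/2-Trikine libraries were the higher ones, by log2 ratios of 0.29 (0.26 to 0.33) and 0.13 (0.07 to 0.20). Junb was at 1376, 1433 and 1514 CPM, Jund at 653, 847 and 833 CPM and Dusp1 at 766, 1098 and 1071 CPM. None of the 17 members passed 2-fold in either direction, 0 lower beside 1.74% of 11988 genes and 0 higher beside 5.37%, and their median was 0.28 (0.13 to 0.38). With the mixed T cell and macrophage cluster counted as macrophages, Fos gave -0.03 and Jun -0.28. In the unnamed cluster with C1qa, Fos and Jun summed stood at 1562, 1934 and 1988 CPM. Neutrophils, from 326, 642 and 113 cells, had Fos at 1292, 1357 and 1146 CPM, Jun at 635, 629 and 432 CPM and Junb at 2075, 2238 and 2000.1 CPM. Fos and Jun summed gave 0.04 (-0.04 to 0.13) for IL-10/2-Trikine over mono-IL-10, and Jun was lower in the combination than in IL-10/2-Trikine (-0.54, -0.87 to -0.24). Dusp1 stood there at 2619.7, 2513 and 2149 CPM and Jund at 1103, 1247 and 1796 CPM. Again 0 of 17 members were lower and 0 higher by 2-fold, beside 12.6% and 7.32% of 8634 genes.

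KP1 tumor cells had Fos at 1080.1, 1192 and 801 CPM and Jun at 509.8, 509.7 and 442 CPM. The log2 ratio of IL-10/2-Trikine over mono-IL-10 was 0.10 (0.06 to 0.14) for Fos and Jun summed. Zfp36 stood at 98, 46.0 and 43.5 CPM (-1.09).

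Neutrophils had the highest level of 12, 13 and 12 of the 17 AP-1 and immediate-early members in the 3 libraries. T cells had the lowest for 10, 7 and 9 of them, and NK cells the lowest for 8 in the IL-10/2-Trikine library against 1 in mono-IL-10. Of the 19 heat shock members, T cells had the highest level of 7, 11 and 11, B cells the highest of 4, 1 and 0, and neutrophils the lowest of 11, 11 and 12. The same counts over all genes were not made, so these orders are not read as particular to the members. Neutrophils also had few genes detected per cell, with medians of 1024, 587.5 and 705.

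The difference in Fos and Jun was seen in the share of cells as well as in the summed level. After every cell was thinned to 1000 UMIs, 23.2%, 7.21% and 7.75% of T cells had a UMI of either gene (49.4%, 26.5% and 24.6% unthinned, at median depths of 3930.5, 4784 and 3776 UMIs). In NK cells the thinned shares were 33.7%, 8.43% and 10.6%, and in monocytes 67.9%, 50.5% and 46.7%. Macrophages, by contrast, stood at 65.5%, 64.0% and 62.7%. No class is known to lack these genes or inducible HSP70, so no background share can be taken from such a class for either. Free RNA held both pairs, at levels given below, and its part in these shares was not tested. Thinning left out 916, 687 and 1697 T cells below that depth.

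**Figure D2:**
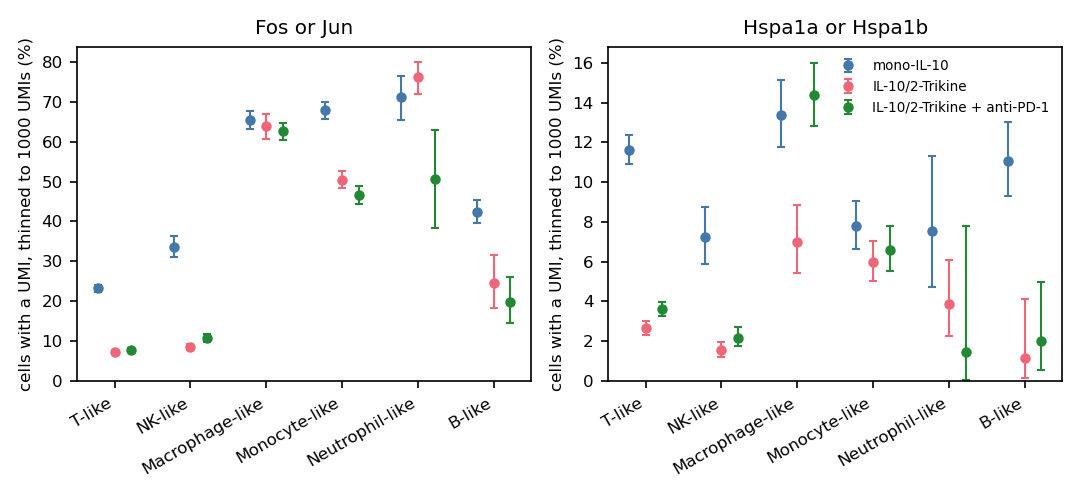
Share of cells with at least 1 UMI of Fos or Jun (left) and of Hspa1a or Hspa1b (right) after thinning to 1000 UMIs, in percent (y axis), by cell class (x axis) and library (colors), with exact binomial 95% intervals as bars. The mono-IL-10 points lie above the others in T, NK and B cells for both pairs, at 23.2% and 11.6% in T cells.

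Within T cells, every subset had lower Jun in the IL-10/2-Trikine library, by log2 ratios from -1.44 in regulatory cells to -2.55 in naive cells. Fos ranged from -0.13 in cycling cells to -1.88 in naive cells and Zfp36 from -0.61 to -1.66. Summed Fos and Jun stood at 227, 65.4 and 97.7 CPM in CD8 effector cells, 365, 135 and 81.9 CPM in activated CD4 cells and 271, 138 and 123 CPM in regulatory cells. All 3 subsets were highest in mono-IL-10. Naive cells were at 677, 149.6 and 135 CPM and cycling cells at 127, 74.1 and 73.3 CPM, so the naive subset was the highest of mono-IL-10 and the cycling subset its lowest. The naive values join clusters that the libraries filled unequally. Within these clusters the log2 ratio of Fos and Jun was -1.49 and -1.34, against -2.18 over the naive subset. The subsets took different shares of the T cells: naive cells made up 26.0%, 7.23% and 9.16% and cycling cells 8.70%, 30.4% and 16.2%. Summed levels weigh cells by their UMIs, and cycling cells were deep. They held 11637451, 50248177 and 31017919 of the 46243289, 82566541 and 77325160 T cell UMIs. With the 5 subsets weighted equally the log2 ratio of Fos and Jun was -1.57, against -1.75 over all T cells, and without the naive subset it was -1.33.

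**Figure D3:**
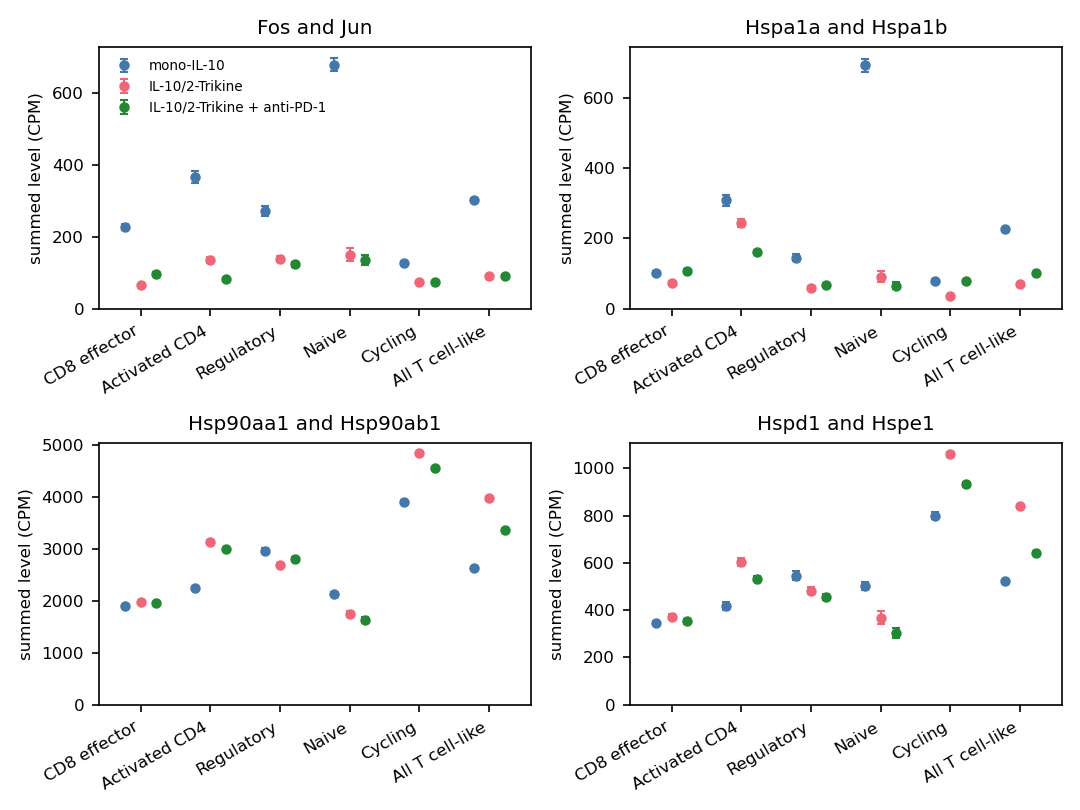
Summed level (y axis, CPM, from 0) of 4 gene pairs in the 5 T cell subsets and in all T cells (x axis), by library (colors), with 95% counting intervals as bars. Hspa1a and Hspa1b reach 692 CPM in naive cells of the mono-IL-10 library against 91.0 CPM in the IL-10/2-Trikine library, with unequally filled naive clusters joined. Hsp90 and Hspd1 with Hspe1 are highest in cycling cells of every library.

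Inducible HSP70 differed in the direction of Fos and Jun in T and NK cells, as did the lower-level Dnajb4, and it was lower with the IL-10/2-Trikine in macrophages too. In T cells, Hspa1a stood at 85.9, 32.3 and 46.9 CPM and Hspa1b at 141, 36.9 and 56.0 CPM. The mono-IL-10 library was the highest and the combination lay between, though below the IL-10/2-Trikine in T cells with no Mki67 UMI (log2 ratios of the combination over IL-10/2-Trikine of -0.26 and -0.02). The log2 ratio of IL-10/2-Trikine over mono-IL-10 was -1.41 (-1.48 to -1.34) for Hspa1a and -1.93 (-1.99 to -1.87) for Hspa1b, and for the sum of both -1.71 (227, 69.2 and 103 CPM). In NK cells Hspa1a was at 36.7, 19.6 and 18.2 CPM and Hspa1b at 89.5, 23.2 and 26.4 CPM, a log2 ratio of -1.56 for the sum. Macrophages had Hspa1a at 142, 48.9 and 155 CPM and Hspa1b at 183, 52.6 and 144 CPM, so that the IL-10/2-Trikine library alone was low and the combination stood with mono-IL-10. The log2 ratios in macrophages were -1.54 (-1.73 to -1.35) and -1.80 (-1.98 to -1.62). Monocytes differed less, with Hspa1a at 80.2, 57.3 and 45.9 CPM and Hspa1b at 71.3, 54.7 and 38.5 CPM, and neutrophils had Hspa1a at 57.5, 97.0 and 27.8 CPM and Hspa1b at 65.1, 55.3 and 46.4 CPM.

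B cells had Hspa1a at 80.5, 3.55 and 28.0 CPM and Hspa1b at 146, 2.37 and 24.7 CPM. The IL-10/2-Trikine values rest on 6 and 4 UMIs in 172 cells, which leaves a wide interval of the summed log2 ratio of -5.26, from -6.32 to -4.38. In the deeper B cell cluster alone, the sum stood at 236, 5.92 and 53.3 CPM. KP1 tumor cells had a sum of 190.3, 99.3 and 64.1 CPM, a log2 ratio of -0.94 (-1.07 to -0.81).

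**Figure D4:**
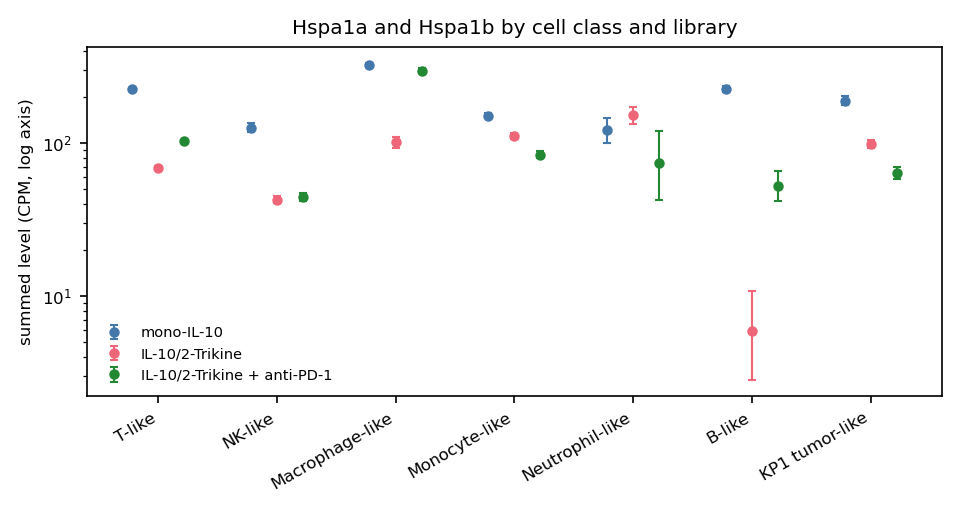
Summed level of Hspa1a and Hspa1b (y axis, CPM, log scale) by cell class (x axis) in the 3 libraries (colors), with 95% counting intervals as bars. Mono-IL-10 is the highest library in T, NK, monocyte, B and KP1 tumor cells, macrophages are low in IL-10/2-Trikine alone (101 CPM against 325 and 299 CPM), and the B cell point of 5.92 CPM rests on 10 UMIs.

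Naive T cells carried most of the inducible HSP70 difference in T cells. Summed Hspa1a and Hspa1b stood at 692, 91.0 and 65.9 CPM in naive cells, a log2 ratio of -2.93 (-3.16 to -2.70), and at 101, 74.4 and 107 CPM in CD8 effector cells. Activated CD4 cells were at 309, 244 and 162 CPM, regulatory cells at 145, 58.2 and 68.6 CPM and cycling cells at 78.5, 37.4 and 79.8 CPM. Without the naive subset, T cells stood at 129, 68.7 and 104 CPM, a log2 ratio of -0.91 in place of -1.71. After thinning, 30.5%, 2.08% and 3.52% of naive cells had a UMI of either gene, against 4.41%, 1.93% and 2.94% of CD8 effector cells. The naive subset joined 2 clusters that the libraries filled unequally. In the cluster found in all libraries (983, 665 and 1076 cells), the sum was 166, 61 and 55.1 CPM, a log2 ratio of -1.45, and Fos and Jun were 334, 132 and 122 CPM (-1.34). In the cluster mostly of mono-IL-10 cells (1165, 44 and 40 cells), the sum was 1115, 411 and 305 CPM (-1.44) and Fos and Jun were 953, 338 and 409.9 CPM (-1.49). Hemoglobin transcripts were at 109 CPM in naive cells of mono-IL-10, all of it in 4 of 2148 cells, and without those cells the HSP70 sum was 694 CPM.

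Of the co-chaperones that work with HSP70, Dnajb1 and Hsph1 differed less over all T cells and Dnajb4 differed about as much as Hspa1a. Dnajb1, the HSP40 that hands clients to HSP70, stood at 70.3, 59.6 and 71.3 CPM in T cells, a log2 ratio of -0.24 (-0.30 to -0.17). Hsph1, the HSP110 nucleotide exchange factor, stood at 99.4, 85.7 and 89.5 CPM, a log2 ratio of -0.21 (-0.27 to -0.16). Both were close to the median of all genes in T cells. In naive T cells they differed more: Hsph1 stood at 174 CPM in mono-IL-10 and 57.4 CPM in IL-10/2-Trikine (-1.60, -1.90 to -1.31) and Dnajb1 at 101 and 50.04 CPM (-1.01, -1.34 to -0.69). Bag3, another exchange factor, was at 26.7, 16.7 and 20.5 CPM (-0.68), but between -0.51 in regulatory and 0.03 in CD8 effector cells within the subsets, so that its difference moved with the makeup of the T cells. The HSP40 Dnajb4 stood at 25.5, 9.70 and 12.1 CPM (-1.39), and its subsets ranged from -1.85 (-2.39 to -1.36) in naive cells, at 72.0 and 19.9 CPM in the first 2 libraries, to -0.20 in CD8 effector cells. The naive values of Hsph1, Dnajb1 and Dnajb4 join the unequally filled clusters of that subset, which were not split for these genes. Dnajb4 in NK cells was at 65.1, 25.0 and 47.3 CPM, a log2 ratio of -1.38. In the other classes, Dnajb1 ranged from 33.4 CPM in monocytes of mono-IL-10 to 67.6 CPM in macrophages of the combination, and none of its log2 ratios between mono-IL-10 and IL-10/2-Trikine passed 0.31 in size. Hsph1 stood at 73.1, 60.2 and 59.0 CPM in NK cells, 56.3, 45.3 and 52.7 CPM in macrophages, 29.6, 42.3 and 25.6 CPM in monocytes, 70.6, 32.5 and 37.1 CPM in neutrophils and 116, 63.3 and 32.7 CPM in B cells. It was thus lower with the IL-10/2-Trikine in all of these classes but monocytes, with a 2-fold difference in neutrophils alone (-1.12, -1.67 to -0.57). Dnajb1 was at 66.1, 53.3 and 65.9 CPM in NK cells, 49.0, 50.2 and 67.6 CPM in macrophages, 33.4, 40.4 and 41.9 CPM in monocytes, 54.3, 49.1 and 46.4 CPM in neutrophils and 53.6, 48.5 and 52.8 CPM in B cells.

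HSP90 and the mitochondrial chaperonin pointed the other way. Hsp90ab1, the constantly made HSP90, stood at 2057, 3048 and 2624 CPM in T cells, and Hsp90aa1, the inducible one, at 572, 929.97 and 744 CPM. Hspd1, which encodes HSP60, stood at 280.5, 481 and 367 CPM and its partner Hspe1 at 242, 359 and 277 CPM. The IL-10/2-Trikine library was the highest for all 4 genes and mono-IL-10 the lowest. The log2 ratios were 0.57 (0.56 to 0.58), 0.70 (0.68 to 0.72), 0.78 (0.75 to 0.81) and 0.57 (0.54 to 0.60). The HSP90 cofactors Stip1 and Cacybp gave 0.57 and 0.43. These differences moved with the makeup of the T cells. The HSP90 sum was 3905.5, 4859 and 4557 CPM in cycling cells but 1907, 1981 and 1963 CPM in CD8 effector cells and 2139.9, 1748 and 1636 CPM in naive cells. Its log2 ratio was -0.29 over the naive subset, but 0.25 in the naive cluster mostly of mono-IL-10 cells and 0.07 in the other. Hspd1 and Hspe1 gave -0.45 over the naive subset and 0.06 and 0.02 in these clusters. With the 5 subsets weighted equally, the naive clusters joined, the log2 ratio of the HSP90 sum was 0.13 in place of 0.60. That of Hspd1 and Hspe1 was 0.14 in place of 0.69. In T cells with no Mki67 UMI, the log2 ratio was -0.11 for Hsp90aa1 and 0.05 for Hsp90ab1.

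The same genes were higher with the IL-10/2-Trikine outside T cells. Hsp90ab1 stood at 1557, 2469.7 and 2066 CPM in NK cells, 944, 1642 and 1132 CPM in monocytes, 1618, 2385 and 1615 CPM in B cells, 1074, 1306 and 1284 CPM in macrophages and 509, 1009.9 and 622 CPM in neutrophils. Hsp90aa1 stood at 430.04, 601 and 552 CPM in NK cells, 352, 552 and 364 CPM in monocytes, 523, 761 and 444 CPM in B cells, 379, 447 and 483 CPM in macrophages and 382, 631 and 292 CPM in neutrophils. In monocytes, neutrophils and B cells the combination returned to the level of mono-IL-10 or near it, and in macrophages it did not. Among cells with no Mki67 UMI, the log2 ratio of IL-10/2-Trikine over mono-IL-10 for Hsp90aa1 was -0.30 in NK cells and -0.30 in B cells, and 0.14 in monocytes. Hspd1 was at least 2-fold higher with the IL-10/2-Trikine in monocytes (114, 231 and 123 CPM, a log2 ratio of 1.01) and in neutrophils (68.4, 146 and 60.3 CPM, 1.09). Without cells that had a Mki67 UMI, the Hspd1 ratios were 0.12 and 0.35. Cacybp in neutrophils stood at 29.3, 71.2 and 27.8 CPM (1.28).

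The constantly made Hspa8, the cytosolic HSC70, stood at 1212, 1335 and 1370.1 CPM in T cells, 1057, 1145 and 1208 CPM in NK cells, 923, 1075 and 1163 CPM in macrophages, 1367, 1405 and 1356 CPM in monocytes, 619, 805 and 557 CPM in neutrophils and 795, 959 and 737 CPM in B cells. Its log2 ratios of IL-10/2-Trikine over mono-IL-10 lay between 0.04 in monocytes and 0.38 in neutrophils. Hspa5, the endoplasmic reticulum chaperone BiP, stood at 652, 809 and 873 CPM in T cells, 748, 726 and 885 CPM in NK cells, 1314, 1482 and 1638 CPM in macrophages, 867, 942 and 1086 CPM in monocytes, 913, 1378 and 1007 CPM in neutrophils and 649.6, 1283 and 953 CPM in B cells. The B cell difference, a log2 ratio of 0.98 (0.91 to 1.05), was its largest. In B cells, 6 of the 15 genes of a list of endoplasmic reticulum stress genes were at least 2-fold higher with the IL-10/2-Trikine as well (Hsp90b1, Pdia4, Sdf2l1, Herpud1, Manf and Creld2), beside 2.78% of all genes, and the median of that list was 0.87. The B class held plasma cell markers, of which Jchain and Mzb1 were among the leading genes of its deeper cluster. All 8 markers of that list were detected in each library, from Sdc1 at 4.35, 9.47 and 8.01 CPM to Jchain at 1119.5, 3594 and 4840.0 CPM, and their sum was 2844, 6729 and 10354 CPM. They did not move together. Igha was lower with the IL-10/2-Trikine, at 682, 87.6 and 4092 CPM, while the others were higher. From IL-10/2-Trikine to the combination Jchain and Igha rose and the others fell, with Iglc2 at 413, 1443 and 378 CPM. The list includes Xbp1, a driver of the secretory program, which is also one of the 15 genes, and the part of these markers in the Hspa5 difference was not tested.

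**Figure D5:**
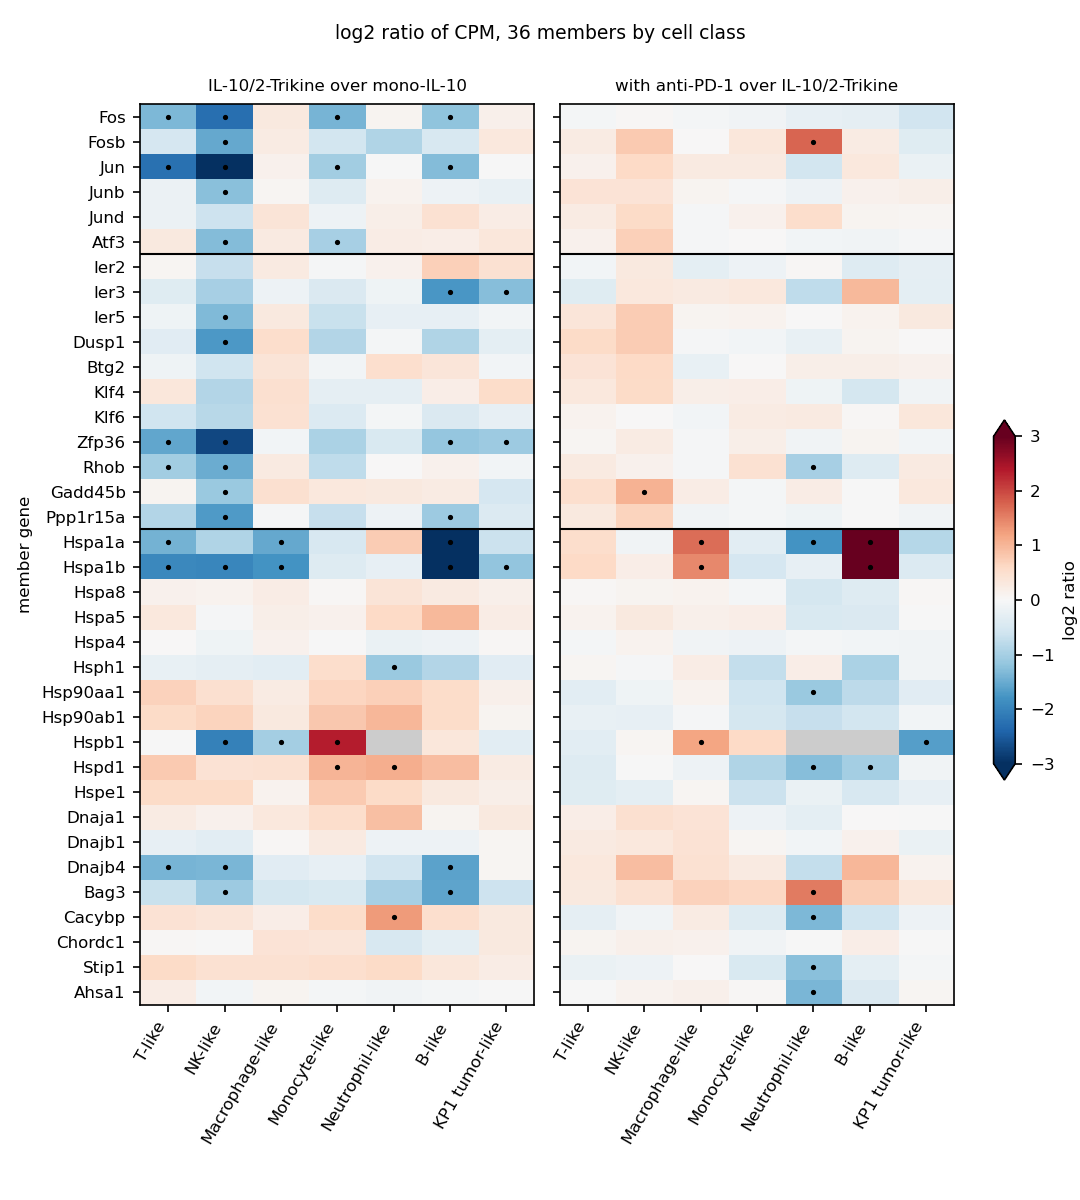
Log2 ratio of CPM (color, from -3 to 3) of the 36 members (rows, with AP-1 subunits, other immediate-early genes and heat shock genes divided by lines) in 6 immune classes and KP1 tumor cells (columns), for IL-10/2-Trikine over mono-IL-10 (left) and the combination over IL-10/2-Trikine (right). Dots mark ratios of 2-fold or more, and gray marks too few UMIs. For IL-10/2-Trikine over mono-IL-10 the dots gather in the immediate-early rows of NK cells. There 11 of 17 genes are lower, beside 8.0% of all genes, and fewer are in the NK cluster with few Cd3e UMIs.

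Counted as a group, the 19 heat shock members had a median log2 ratio of 0.14 (-0.24 to 0.57) in T cells, with 3 at least 2-fold lower (Hspa1a, Hspa1b and Dnajb4) and 0 higher, beside 9.46% of all genes lower and 3.59% higher. That median was -0.11 in T cells with no Mki67 UMI. NK cells had 4 lower (Hspa1b, Hspb1, Dnajb4 and Bag3) around a median of -0.04, turned to 0.18 by another scaling (TMM), beside 8.0% of all genes lower. Macrophages had 3 lower (Hspa1a, Hspa1b and Hspb1) around 0.14, beside 1.74%. Monocytes had 2 higher (Hspb1 and Hspd1) around 0.35, beside 8.85% of all genes, and neutrophils 2 higher (Hspd1 and Cacybp) and 1 lower (Hsph1) around 0.48, beside 7.32% and 12.6%. B cells had 4 lower (Hspa1a, Hspa1b, Dnajb4 and Bag3) around 0.09, beside 17.3%. The counts of monocytes, neutrophils and B cells were near these shares of all genes. The small heat shock protein gene Hspb1 was under 5 CPM in all these classes and libraries, and was not detected in neutrophils.

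The second comparison, of the combination over IL-10/2-Trikine, shares the IL-10/2-Trikine library with the first. Adding the antibody left Fos and Jun where the IL-10/2-Trikine had them in T cells, with log2 ratios of the combination over IL-10/2-Trikine of -0.06 (-0.13 to -0.00) and 0.13 (0.05 to 0.21). Several other immediate-early genes were higher, with Dusp1 at 0.56, Gadd45b at 0.50, Btg2, an antiproliferative gene, at 0.40 and Junb at 0.40, while Ier2 gave -0.09 and Ier3 -0.37. No member passed 2-fold in T cells, where 3.43% of 15696 genes were higher and 1.61% lower by that much, and the medians were 0.25 for the 17 immediate-early members, 0.04 for the 19 heat shock members and 0.06 for all genes. In NK cells all 17 immediate-early members were above 0, with a median of 0.57 (0.28 to 0.71) against 0.05 for all genes, and 0.16 in the cluster with few Cd3e UMIs, where Fos gave -0.42 and 0 of 17 passed 2-fold beside 1.88% of genes higher and 2.09% lower. In the whole class Gadd45b alone passed 2-fold, at 1.03 (0.98 to 1.09), beside 4.15% of genes higher and 2.77% lower. In CD8 effector cells Fos and Jun gave 0.58 and in activated CD4 cells -0.73, so the T cell total joined opposite differences.

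In macrophages inducible HSP70 was higher in the combination, with log2 ratios over IL-10/2-Trikine of 1.66 (1.48 to 1.86) for Hspa1a and 1.45 (1.27 to 1.64) for Hspa1b. Hspb1, at 0.730 and 1.66 CPM, was past 2-fold as well, from 4 and 18 UMIs and with an interval that includes 0 (-0.42 to 3.21), beside 1.22% of genes higher and 3.81% lower. The share of macrophages with a UMI of Hspa1a or Hspa1b, thinned, was 13.4%, 7.01% and 14.4%. In cycling T cells the sum was also higher with the antibody, 37.4 against 79.8 CPM. Monocytes had 0 members past 2-fold, beside 2.24% of genes higher and 8.35% lower, and Hspd1 there was lower by a log2 ratio of -0.90, which was 0.08 in monocytes with no Mki67 UMI. In B cells Hspa1a (2.98, 1.74 to 4.51) and Hspa1b (3.38, 1.91 to 5.33) were higher from the few UMIs of the IL-10/2-Trikine library and Hspd1, at 204, 387 and 192 CPM, was lower (-1.02), beside 5.08% of genes higher and 4.73% lower. Neutrophils of the combination numbered 113 cells. Fosb, at 220.4, 118 and 394 CPM (1.74, 1.36 to 2.12), and Bag3, at 49.9, 25.2 and 74.3 CPM (1.56), were higher there than in IL-10/2-Trikine. Rhob, at 221, 223 and 111 CPM (-1.0), Stip1, at 44.5, 66.3 and 27.8 CPM (-1.25), and Hspa1a (-1.80), Hsp90aa1 (-1.11), Hspd1 (-1.27) and Cacybp (-1.35), with levels given above, were lower, beside 8.77% of genes higher and 14.0% lower. Ahsa1, an HSP90 activator, gave -1.38 there from 3 UMIs in the combination, with an interval that includes 0 (-3.70 to 0.24).

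Genes of the same pathways outside the 36 gave the following counts for IL-10/2-Trikine over mono-IL-10. Of 28 other immediate-early and early response genes, 3 were at least 2-fold lower in T cells (Egr2, Tnfaip3 and Ier5l) around a median of -0.45, beside 9.46% of all genes. In NK cells 16 were lower (among them Egr2, Nr4a1, Nr4a3, Nfkbia and Tnfaip3) around -1.11, beside 8.0% of all genes, and in macrophages 0 were lower and 4 higher (Egr2, Egr3, Nr4a2 and Gem) around 0.19, beside 1.74% and 5.37%. Egr2 and Nr4a1 mark antigen receptor signaling, and Nfkbia and Tnfaip3 restrain NF-kB. Of 15 kinases and regulators upstream of AP-1, 0 passed 2-fold in T or NK cells (medians -0.34 and -0.33). Among 12 other AP-1 family members and partners, Batf3 was past 2-fold in T cells, at 6.38 CPM in mono-IL-10 and 16.8 CPM in IL-10/2-Trikine (1.40, 1.21 to 1.58). The medians of that list were 0.05 in T cells and -0.34 in NK cells. Batf2 in NK cells, at 0.146 and 0.772 CPM, gave 2.40 with an interval that includes 0 (-0.19 to 7.75). Of 19 heat shock factors and other cytosolic chaperones 0 passed 2-fold in T or NK cells (0.03 and 0.04). All 8 subunits of the TRiC chaperonin, which folds actin and tubulin, were above 0 in T cells (median 0.45) and in NK cells (0.40), and the 6 mitochondrial chaperones gave 0.33 and 0.15. The 15 endoplasmic reticulum stress genes gave 0.37 in T cells and 0.26 in NK cells.

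Measures of handling moved with some of these results, and their part in them was not tested. The median mitochondrial share of UMIs in T cells was 1.55%, 1.35% and 1.34%. The nuclear-retained RNA Malat1, which is relatively enriched when cytoplasm is lost, stood at 8363, 4108 and 6082 CPM in T cells and at 9238, 4742 and 8166 CPM in NK cells, highest in mono-IL-10 and lowest in IL-10/2-Trikine. In the NK cluster with few Cd3e UMIs it stood at 11056, 10049 and 11879 CPM, highest in the combination, and in the cluster rich in Cd3e at 7729, 4094 and 6683 CPM. T cell subsets also differed from the total: Malat1 was highest in the combination in naive cells (12363, 11498 and 16512 CPM) and in CD8 effector cells (9768, 7847 and 10435 CPM), and low in cycling cells (3621, 2277 and 2891 CPM). Naive cells had a median mitochondrial share of 2.02%, 1.76% and 2.02%. Their inducible HSP70 difference was the largest of the 5 subsets, with their unequally filled clusters joined. Within T cells of mono-IL-10, Fos and Jun stood at 196, 252 and 586 CPM in the tertiles of cells with the lowest, middle and highest mitochondrial share, and Hspa1a with Hspa1b at 129.5, 171 and 509 CPM. In IL-10/2-Trikine the tertiles gave 78.6, 70.9 and 129 CPM for Fos and Jun and 100.4, 48.9 and 72.8 CPM for Hspa1a with Hspa1b. Mono-IL-10 was higher than IL-10/2-Trikine in each tertile. The combination gave 78.3, 78.3 and 123 CPM for Fos and Jun and 131, 99.8 and 79.6 CPM for Hspa1a with Hspa1b, so that in the lowest tertile its HSP70 sum was level with that of mono-IL-10. In NK cells, Fos and Jun of mono-IL-10 stood at 668, 530.3 and 656 CPM in the tertiles and those of IL-10/2-Trikine at 92.8, 76.3 and 140.3 CPM, with no step across the mono-IL-10 tertiles. Myeloid cells ran the other way. From the lowest to the highest tertile, Fos and Jun stood at 2842, 1743 and 1566 CPM in macrophages of mono-IL-10 and at 3658, 2299 and 1459 CPM in those of IL-10/2-Trikine, and at 2758, 2193 and 1808 CPM in monocytes of mono-IL-10.

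Depth and free RNA were measured in the same way. In the tertiles of T cells by UMIs per cell, from shallow to deep, Fos and Jun stood at 647, 458 and 188 CPM in mono-IL-10 and at 195, 106 and 74.7 CPM in IL-10/2-Trikine, so shallow cells were the high ones in both libraries. Subsets differed in depth, with medians of 3409 and 2306 UMIs in naive cells and 13298 and 14357 UMIs in cycling cells of these libraries. The T cells also held an unnamed cluster in none of the subsets, with 1433 cells and a median of 414 UMIs. Il1b, Tyrobp and Cybb were among its leading genes. RNA in droplets under 100 UMIs, which samples RNA set free from broken cells, held Fos and Jun at 986, 488 and 651 CPM and Hspa1a with Hspa1b at 209, 81.4 and 133 CPM, again highest in mono-IL-10. The share of T cell UMIs estimated to come from free RNA was 2.68%, 2.83% and 3.06%. In NK cells it was 2.22%, 2.14% and 2.96%, and in the other classes it ran from 8.77% in macrophages of the combination to 50% in B cells of mono-IL-10, the highest the estimate was allowed. Monocytes had 12.2%, 32.2% and 19.2%, macrophages 8.91%, 19.7% and 8.77% and neutrophils 33.8%, 41.0% and 27.0%. Each of these classes was highest in IL-10/2-Trikine. The estimated share was 25.7% in B cells of IL-10/2-Trikine, where Hspa1a with Hspa1b stood at 5.92 CPM against 81.4 CPM in free RNA. That share alone would bring more than 5.92 CPM, so the estimate is too high for this pair in B cells. In macrophages the median mitochondrial share was 1.62%, 1.08% and 1.17% and Malat1 stood at 10710, 11121 and 11485 CPM.

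Fos or Jun and inducible HSP70 were found in the same T cells more often than the product of their shares. Thinned, 6.30%, 0.592% and 0.829% of T cells had UMIs of both pairs, where the products were 2.70%, 0.191% and 0.279%. In macrophages the shares with both were 11.0%, 6.13% and 12.4% against products of 8.77%, 4.48% and 9.01%. These cells share a library and a depth, and the values are given as a description. The product was taken over T cell subsets that differed in both pairs, and an excess within a subset was not tested. Most HSP70 transcripts came from few cells: 75.2% of the thinned Hspa1a and Hspa1b UMIs of mono-IL-10 T cells lay in the top 5% of cells, while 48.4% of the Fos and Jun UMIs did.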

How the data were processed

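The authors deposited raw UMI counts per gene and barcode, empty droplets included, made from 10x 3′ libraries with Cell Ranger (8.0.0 in the file header), and their processing notes name mm10. Barcodes under 200 genes or over 20% mitochondrial UMIs were dropped, and the rest were clustered with scanpy 1.11.5 (2000 variable genes without the members and lists, 30 components, 20 neighbors, Leiden resolution 1, seed 1) and named from marker genes, and T cells were clustered again (resolution 0.8). A cluster with both Cd3 and C1q UMIs in over 50% of barcodes was set apart after seeing the data, and doublets were not removed. Clusters with under 3 markers or with leading genes of another class were left unnamed. UMIs were summed per class and library and divided by all UMIs of the class. Intervals were exact Poisson for levels, conditional binomial for ratios, order-statistic for medians and Clopper-Pearson for shares (scipy 1.17.1), checked on simulated data. Ratios needed 20 UMIs in the pair. Values per library were printed for members past 2-fold at 50 CPM or more and for Fos, Jun, Junb, Jund, Dusp1, Hspa1a, Hspa1b, Dnajb1, Hsph1, Hsp90aa1, Hsp90ab1, Hspa8 and Hspa5 in every class. The members and lists were chosen with earlier results of these data known. Alternatives changed scaling, filters, cells, clustering and thinning.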

Additional observations from a re-analysis of the deposited data

Results flagged for a closer look

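Members whose counting intervals lay on opposite sides of 0 in a pair of cell classes under the same comparison are given where the log2 ratios were at least 1 apart and one of them reached 2-fold, counting a class only where either library of the comparison reached 50 CPM, with the log2 ratio in each class and the lowest of those classes first. The difference between the classes was not tested in any of them, since each class has 1 library per group, and classes of a library share its handling. For IL-10/2-Trikine over mono-IL-10, Fos stood at -2.26 in NK cells and 0.29 in macrophages, Fosb at -1.53 and 0.24, and Jun at -3.09 and 0.13. Ier5 stood at -1.32 in NK cells and 0.29 in macrophages, Dusp1 at -1.71 and 0.52, Rhob at -1.49 and 0.28, and Gadd45b at -1.10 and 0.49. Atf3 stood at -1.0 in monocytes and 0.27 in macrophages, and Junb at -1.26 in NK cells and 0.11 in neutrophils. Of these NK cell values, those of Fos and Jun alone reached 2-fold in the NK cluster with few Cd3e UMIs. With the mixed cluster counted as macrophages, the macrophage value was -0.03 for Fos and -0.28 for Jun. Hspa1a stood at -4.50 in B cells and 0.75 in neutrophils.

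For the combination over IL-10/2-Trikine, Hspa1a stood at -1.80 in neutrophils and 1.66 in macrophages, and Hspa1b at -0.51 in monocytes and 1.45 in macrophages. Rhob stood at -1.0 in neutrophils and 0.46 in monocytes, Hsp90aa1 at -1.11 in neutrophils and 0.11 in macrophages, and Cacybp at -1.35 in neutrophils and 0.24 in macrophages.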

How the results depend on the processing

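Medians over the 17 AP-1 and immediate-early members that lay outside the interval of the value given in the report are listed by setting, as log2 ratios of IL-10/2-Trikine over mono-IL-10 or of the combination over IL-10/2-Trikine. For IL-10/2-Trikine over mono-IL-10, the T cell median of -0.35 was -0.13 with TMM factors and -0.0599 in cells with no Mki67 UMI. The NK cell median of -1.30 was -0.85 in the cluster with few Cd3e UMIs. The macrophage median of 0.28 was 0.42 with free RNA subtracted and 0.00186 with the mixed cluster counted as macrophages. The neutrophil median of -0.01 was 0.16 with TMM factors, 0.28 without the 8% of barcodes with the highest doublet scores, -0.21 with at least 500 genes per cell, -0.15 with at least 1000 UMIs per cell, 0.17 in cells with no Mki67 UMI, 0.14 with free RNA subtracted and 0.33 as a mean over cells. For the combination over IL-10/2-Trikine, the NK cell median of 0.57 was 0.25 at Leiden resolution 2 and 0.16 in the cluster with few Cd3e UMIs. The macrophage median of -0.03 was -0.0517 without the 8% highest doublet scores, -0.0626 in cells with no Mki67 UMI, -0.17 with free RNA subtracted, -0.0571 as a mean over cells and 0.33 with the mixed cluster. The monocyte median of 0.10 was -0.17 in cells with no Mki67 UMI and -0.11 as a mean over cells. The neutrophil median of -0.12 was -0.23 without the 8% highest doublet scores, -0.29 with TMM factors, -0.44 in cells with no Mki67 UMI, -0.38 with free RNA subtracted, -0.24 as a mean over cells and -0.35 with median-of-ratios factors. The B cell median of 0.07 was -0.30 in cells with no Mki67 UMI, -0.16 with free RNA subtracted and -0.18 as a mean over cells. The B cell median of the 19 heat shock members, -0.34, was 0.20 in cells with no Mki67 UMI and -0.64 with free RNA subtracted. The cause was not tested in any of these, and the B cell medians with free RNA subtracted rest on an estimate that was too high for inducible HSP70. The other 300 medians of the 6 classes under an alternative lay within the interval.

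Over the alternatives, the log2 ratio of IL-10/2-Trikine over mono-IL-10 in T cells ranged from -1.51 to -0.90 for Fos, from -2.32 to -1.86 for Jun, from -1.50 to -0.75 for Hspa1a and from -2.03 to -1.03 for Hspa1b. In NK cells it ranged from -2.38 to -1.72 for Fos and from -3.17 to -2.34 for Jun. In monocytes it ranged from -1.45 to -1.04 for Fos and from -1.10 to -0.67 for Jun. In macrophages it ranged from -1.62 to -0.80 for Hspa1a and from -1.96 to -1.20 for Hspa1b. Of 332 counts of members past 2-fold, 55 moved by over 1.5 times, most often in cells with no Mki67 UMI (10 counts). Log2 ratios of single members have narrow intervals, and under an alternative 845 of them moved and 1809 did not. They too moved most often in cells with no Mki67 UMI (144 ratios). Shares of cells moved in 66 cases and did not in 6, with thinning to 500 UMIs or none. The doublet caller's own threshold marked 12.5% of mono-IL-10 cells and no barcode in the other libraries, so removal by that threshold was not run. The cut at 8% of scores, the settings on single clusters and on the naive subset and the cut at 1000 UMIs were chosen after seeing the data. No paired analysis was possible because each group was 1 library. Neutrophils of the combination (113 cells) and B cells of the IL-10/2-Trikine library (172 cells) limit the depth of every value given for them.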
